A study of Mus musculus with 4 samples.

Results

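The m6A map of liver RNA from Alkbh5flox/flox mice, labelled FF, held 14057 peaks on 8376 genes. It was taken as every peak called in the FF immunoprecipitate (IP) over the FF input, and it is 1 of the peak lists of the series, which hold 28750 peaks in all. The FF mice carried a floxed Alkbh5 gene, were 9 weeks old and ate normal chow. The labels name no Cre driver and no sex for them. In methylated RNA immunoprecipitation sequencing (MeRIP-seq), RNA is broken into short fragments, an antibody captures the fragments with N6-methyladenosine (m6A), and the captured fraction is sequenced beside the input. Here 300 μg of RNA pooled from 3 mice was cut to about 100 nt and held with the antibody for 2 h, and both libraries were read as pairs of 150 bp. The list therefore rests on 1 pool with no replicate, no test can be made, and every interval below is a 95% interval that covers counting error over peaks or genes only. Read totals are not in the list, so the depth behind each peak is unknown. The sources disagree on the reagents: the series text gives Synaptic Systems as the maker of the antibody and a New England Biolabs kit, and the sample protocols give Merk Millipore and a NuGEN kit.

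N6-methyladenosine is the commonest internal modification of messenger RNA. It is written in the nucleus by METTL3 and METTL14 with adaptors such as WTAP and RBM15, erased by ALKBH5 and FTO, and read by YTH domain proteins that steer splicing, export, translation and decay. It falls mostly in the sequence GGACT and close relatives of it, and in many tissues it gathers around stop codons, in 3′ untranslated regions and in unusually long internal exons. Antibodies against m6A also bind m6Am, a methylated adenosine that can be the first base of a transcript, so that a peak over a transcript start can come from either mark. A peak is a stretch of exons, given as 1 or more blocks. Its fold enrichment is the ratio of IP over input as the authors computed it, and its log10 q is their score for how unlikely that ratio is.

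Peaks over the first bases of a gene were a sizeable class in this list, and the start sequences of 4 of them are shown as examples. They belong to the peaks of highest fold centred within 500 bp of an annotated gene start. Each stretch comes from RefSeq (GRCm38.p6), runs in the sense direction, and has the annotated first base in capitals after 10 bases of upstream sequence.
Fxr2, plus strand, chr11:69632961-69632990: cggcagcaggGggaggtggaggccgtggag
1810013L24Rik, plus strand, chr16:8830090-8830119: ggtcgccgcaGaggcgtcgacgccgccgcc
Naa15, plus strand, chr3:51416006-51416035: ggctgcctctGtcggtcttttcagttacca
C630043F03Rik, plus strand, chr4:72201234-72201263: gctgtcaatcAaagtaacgtggggcgagta

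The peak on Fxr2, which encodes an RNA-binding protein of the fragile X family, began on the first base of the gene, was 421 bp long and had a fold of 121. The peak on Naa15, the auxiliary subunit of an N-terminal acetyltransferase, also began on the first base, with 361 bp and a fold of 94. The peaks of 1810013L24Rik (540 bp, fold 117) and C630043F03Rik (866 bp, fold 86.9) began 30 bp further in. Of these 4 starts 1 was an A and 3 were a G, the base that was commonest among the starts of marked genes.

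Among protein-coding genes with a RefSeq window at the annotated start, 746 had a peak over the first 50 bases, 2628 had peaks only elsewhere, and 7208 had no peak. The first base was an A in 34.9% (31.5 to 38.3) of the starts under a peak, against 27.8% (26.1 to 29.5) of those whose peak lay elsewhere. It was a G in 44.9% (41.4 to 48.5) and 47.2% (45.3 to 49.1). Genes with no peak had an A more often than both, in 48.5% (47.3 to 49.6) and a G less often, in 29.2%. They also differed in base composition, since their first 50 bases had a median GC content of 54% against 66% in both marked groups. An A at the annotated start was thus more frequent under a start peak than in the other marked genes, and most frequent where no peak was listed.

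The motif GGACT, which overlaps the shorter GGAC and whose reverse complement is AGTCC, was searched in the same first 50 bases on both strands. It was present in 5.90% (4.42 to 7.83) of the starts under a peak, 5.18% (4.39 to 6.09) of those with a peak elsewhere and 6.58% (6.03 to 7.17) of those with no peak, and in 6.18% of all 10582 windows. AGTCC was present in 6.97%, 5.40% and 4.26% of the 3 groups, and in 4.73% of all windows. The share of GGACT was therefore much the same with and without a start peak. Where GGACT did lie inside a start peak, the 5 peaks of highest fold read as follows, each in the sense direction with the motif in capitals.
Prkaca, plus strand, chr8:83972978-83973007: ggacagaGGACTtgggctgaggctcccccg
Josd2, plus strand, chr7:44467997-44468026: agcagccccggaGGACTtccGGACTgcgcg
Wbp1, minus strand, chr6:83121432-83121461: tgattggctGGACTgagcaactgtgtcctc
Sap30l, plus strand, chr11:57801657-57801686: gcccaggggctgccgcggGGACTcggggcg
Ing2, minus strand, chr8:47675130-47675159: GGACTagtcctgtgagactccgacaggcac

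The peak of Prkaca, the catalytic subunit of protein kinase A, reached a fold of 38 (log10 q -42.8), and its motif began at base 8 of the gene. In Ing2, a chromatin reader, the annotated transcript opened with the motif itself, and the peak over it had a fold of 19.6. Josd2, a deubiquitinase, had a fold of 30.5, Wbp1 one of 25.2 and Sap30l, a part of a histone deacetylase complex, one of 20.8. The window of sequence used here ended 50 bases into each gene, so the motif was not searched in the rest of any peak.

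Most marked genes had 1 peak or 2. Of the 8376 genes, 4686 (55.9%) had 1 peak, 2373 (28.3%) had 2, 886 (10.6%) had 3 and 283 (3.38%) had 4, and the mean was 1.68. Genes with 2 or more peaks numbered 3690 (44.1%, 43.0 to 45.1) and held 66.7% of all peaks. Genes with 5 or more numbered 148 (1.77%, 1.51 to 2.07) and held 835 peaks, or 5.94%. At a q of 1e-05 or less these counts were 1946 and 36 genes, and without the peaks whose fold and p recur, described below, 2836 and 89. Of 21896 protein-coding genes in the RefSeq table, 7817 had a peak (35.7%, 35.1 to 36.3), 5869 (26.8%) had one at a q of 1e-05 or less, and 144 (0.658%) had 5 or more. These shares are the background for each family below. A gene without a peak may carry no m6A or may have too little RNA for a peak to be called, and in bulk liver fewer cells of a type and less RNA per cell cannot be told apart. The list gives no RNA levels.

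**Figure D1:**
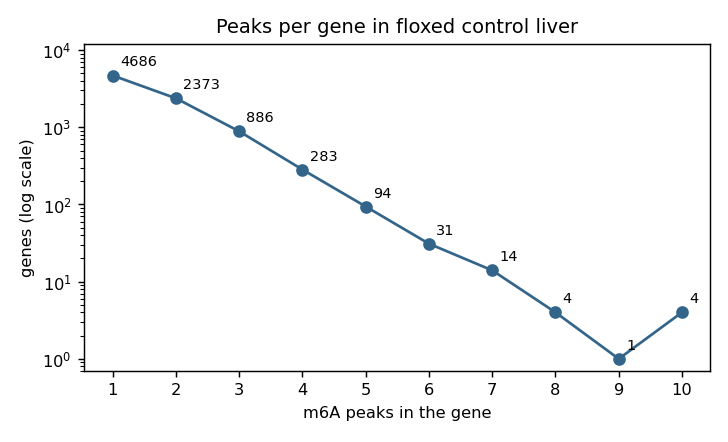
Number of genes (log scale) against the number of m6A peaks in the gene, from 1 to 10, in the FF list of 8376 genes. The count drops at nearly every step, from 4686 genes with 1 peak to 4 genes with 8, 1 gene with 9 and 4 genes with 10.

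Peaks were short and usually sat within 1 exon block. The exonic length, the sum of a peak's blocks, ran from 85 to 2480 bp with a median of 241 bp (quartiles 179 and 390), and the lengths added up to 4460.59 kb. Lengths were not smooth: 82.7% lay within 1 bp of a multiple of 30 bp, the step in which peaks grew. A single block made up 11605 peaks (82.6%), 2 blocks 1976 and 3 blocks 347, so that 2452 peaks (17.4%, 16.8 to 18.1) were joined across at least 1 intron. Such peaks spanned a median of 1670.5 bp of genome with 269 bp of exon and had a median fold of 7.905, against 9.01 for peaks of 1 block. The largest number of blocks was 13, in a peak of 628 bp on Col18a1, a basement membrane collagen (fold 3.29). Os9, a factor of protein quality control in the endoplasmic reticulum, and Myh9, a non-muscle myosin, followed with 9 blocks each (1404 bp and fold 8.62; 1260 bp and fold 15). Both strands were used alike, with 7055 peaks (50.2%, 49.4 to 51.0) on genes of the plus strand.

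Long peaks had higher folds. The median fold was 5.87 in peaks of up to 100 bp, 6.21 in those above that and up to 200 bp, 8.36 up to 400 bp, 12.6 up to 800 bp, and 16.5 in longer ones. Across all 14057 peaks Spearman's rho was 0.398 between length and fold and -0.780 between length and log10 q, while fold and log10 q were only loosely ordered (-0.182). These are descriptions over peaks that share 1 pair of libraries. The longest peak, of 2480 bp with a fold of 35.5, lay on Gdf2, which encodes the liver-made growth factor BMP9. Tnks1bp1 (2337 bp, fold 19.3), Plin4, a lipid droplet protein (2336 bp, fold 77.5), Eif3a, a translation initiation factor (1975 bp in 8 blocks, fold 6.75), Tmem127 (1971 bp, fold 6.92) and Foxa2, a pioneer factor of hepatocytes (1950 bp, fold 19.8), came next.

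Along the gene span, peaks gathered at both ends, close against the start and over a broader stretch at the end. Positions were taken from the centre of a peak's exonic sequence to the annotated limits of the whole gene, for the 14040 peaks that could be placed. By that measure 2109 peaks (15.0%, 14.4 to 15.6) were centred within 500 bp of the start, 3730 (26.6%, 25.8 to 27.3) within 1000 bp of the end, 48 within both windows, and 8249 (58.8%) within neither. The windows are unequal: within 500 bp the end held 2125 peaks (15.1%, 14.6 to 15.7), about as many as the start, and within 200 bp it held 761 against 1336 at the start. Cut into 10 equal parts, the gene span held 42.9% of the peaks in its last part, 12.1% in the part before it and 18.7% in its first, against 2.75% to 3.35% in each of parts 2 to 6. The span includes introns, while peaks are stretches of exons. The exon length in each part was not counted, so these shares do not give peaks per length of exon. Whether a peak lay in coding sequence or in an untranslated region was not analysed here.

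**Figure D2:**
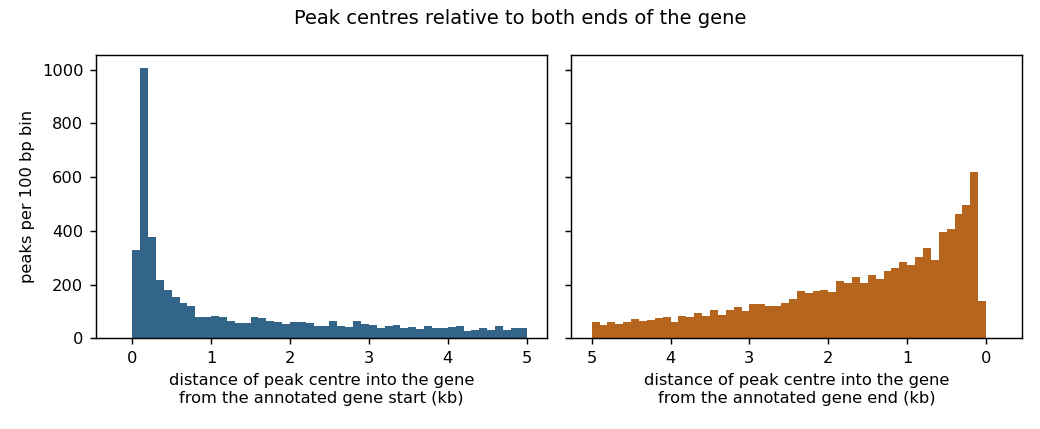
Number of FF peaks in bins of 100 bp by the distance (kb) of the peak centre from the annotated gene start (left) and from the annotated gene end (right). Start peaks pile up in the bins nearest the start and drop off steeply, while end peaks decline slowly over several kb into the gene.

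Start peaks and end peaks were unlike in shape. Peaks centred near the start only were short (median 181 bp), crossed an intron in 30.9% (28.9 to 32.9) of cases and had a median fold of 8.95. Those near the end only had a median length of 271 bp, crossed an intron in 8.72% (7.85 to 9.67) and had a lower median fold of 6.66. The lengths are not compared on equal terms. A peak centred close to a gene limit has little room on that side, and the start window is the narrower one. How much of the difference in length comes from these definitions was not tested. The peaks in neither window had the highest median fold, 9.89, with 269 bp and 17.9% across an intron. Among genes, 1418 (16.9%) had peaks at the start and not at the end, 2747 (32.8%) at the end and not at the start, 670 (8.01%) at both and 3531 (42.2%) at neither. As a share of peaks, the ends took a smaller part in genes with more peaks. Of single peaks, 34.1% lay at the gene end and 18.3% at the start, against 11.6% and 6.47% in genes with 5 or more. The windows have a fixed size and room for few peaks of a gene, so these shares tend to fall as peaks per gene rise. They do not show that genes with more peaks were marked less often at their ends. The median span of the genes grew alongside, from 20.5 kb with single peaks to 38.3 kb with 5 or more.

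Several peaks of 1 gene often differed widely in fold. In the 3690 genes with 2 or more peaks, the highest fold was a median of 2.50 times the lowest, and in 1 gene in 20 more than 10.2 times. The largest ratio, 62.9, was in Sertad3, a transcriptional coregulator, where a peak of 509 bp had a fold of 219 and its neighbour of 150 bp a fold of 3.48. Bmp2, a growth factor, had folds of 12.5, 140 and 2.68 along the gene, and Gphn, the scaffold protein gephyrin, 128 and 2.50. Neighbouring peaks of a gene were a median of 1464 bp apart, and 6.32% of the 5681 gaps were 100 bp or less. Joining those left 13698 peaks.

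Marked genes were spread over the autosomes and scarce on the sex chromosomes. On autosomes the share of protein-coding genes with a peak ran from 30.2% (27.2 to 33.4) on chromosome 14 to 44.7% (41.7 to 47.8) on chromosome 8. On the X it was 167 of 966, or 17.3% (15.0 to 19.8), and a marked gene there had 1.39 peaks on average, below the range over autosomes of 1.61 (chromosome 6) to 1.80 (chromosome 15). The most peaks, 1176, were on chromosome 11. The Y held 1 marked gene of 256, Eif2s3y, a translation initiation factor subunit, with folds of 77.5 and 46.2. Xist, the RNA that coats the inactive X chromosome, had 0 peaks. No peak was listed on the mitochondrial genome, and 9 were on scaffolds outside the chromosomes.

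**Figure D3:**
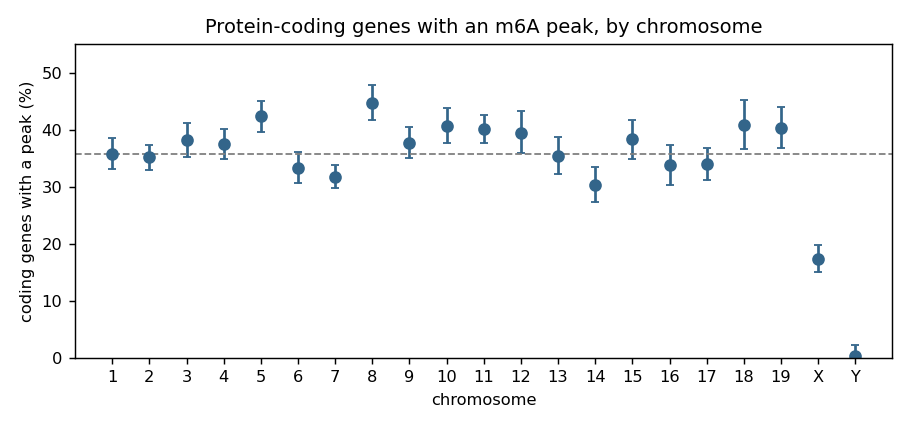
Share (%) of the protein-coding genes of each chromosome that had a peak in the FF list, with 95% Wilson intervals as bars and the share over all chromosomes (35.7%) as a dashed line. The autosomes lie between 30.2% and 44.7%, and the X at 17.3% and the Y at 0.391% lie below all of them.

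The 4 genes with the most peaks, 10 each, were Plec, Apob, Kmt2d and Pcdh1. Plec encodes plectin, a giant linker of the cytoskeleton, and had the most peak sequence, 5707 bp. It lies on the minus strand of chromosome 15 with a span of 60405 bp, and all 10 peaks were centred 47585 bp or more from its start. Their folds, from the gene end inward, were 4.89, 3.21, 2.48, 2.98, 10.9, 20.4, 45.0, 79.9, 20.2 and 6.27. The summit was a block of 1921 bp at chr15:76178694-76180614, and folds were lower on both sides of it. Apob encodes apolipoprotein B, the backbone of very low density lipoprotein, and had 4712 bp in 10 peaks between 28907 bp and 39105 bp from its start. In gene order their folds were 4.03, 7.36, 8.89, 6.73, 3.73, 5.72, 2.56, 1.77, 1.65 and 2.58. The 4 nearest the gene end had the lowest folds, yet log10 q values from -157 down to minus infinity. The lowest finite log10 q in the list was -320, and the reason for entries of minus infinity was not given in the sources used here.

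Kmt2d, a methyltransferase of histone H3 lysine 4, had 4267 bp in 10 peaks strewn along the gene, with folds from 6.08 to 23.7. The highest was a peak of 989 bp centred 1843 bp from the start. Pcdh1, an adhesion protein of the protocadherin family, had 4079 bp in 10 peaks with folds from 2.35 to 14.9. In both genes the peaks lay in separate patches along the span, with none of the very high folds seen in Plec.

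The next genes by number of peaks had 7 to 9 each. Son, a scaffold of nuclear speckles, had 9 peaks with folds from 2.46 to 44.1, the highest 719 bp long. Rrbp1, a ribosome-binding protein of the endoplasmic reticulum, had 8, of which 7 had folds between 1.36 and 8.88 and 1, of 1704 bp, a fold of 23.3. Dido1, a chromatin-associated regulator, had 8 peaks, of which 6 had folds between 13.3 and 20.8 and 2 folds of 2.90 and 3.13. Klf15, a transcription factor of fasting metabolism, had 8 peaks with folds from 2.27 to 32.1, and the one with the lowest q (420 bp, fold 10.5, q at minus infinity) was not the one of highest fold. Rbm15, an adaptor of the m6A methyltransferase itself, had 8 peaks, all centred within 4183 bp of its start, with folds from 4.18 to 25.8. Ankrd11, a chromatin cofactor, and Golgb1, the Golgi protein giantin, had 7 each, with top folds of 16.4 and 18.8.

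In 3 genes, peaks of the same gene overlapped each other, so their counts are partly double. Fignl2 was listed with 7 peaks and 3291 bp, which covered 1708 distinct bp. Neat1, the architectural RNA of nuclear paraspeckles, was listed with 6 peaks and 4307 bp over 2294 distinct bp, and 5031425E22Rik with 3 peaks and 901 bp over 810. The paired Neat1 peaks had nearly the same folds, 7.65 and 7.79 for one pair and 7.45 and 7.60 for the other.

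Density was also taken as peaks per kb of annotated gene span, introns included, a measure that favours short genes. Among genes with 5 or more peaks, Pgp, a phosphatase of metabolic by-products, had 1.86 peaks per kb of gene with folds from 1.93 to 11.3. Mpeg1, a perforin-like gene of macrophages, had 6 peaks that covered 66.4% of its span (1.33 per kb), with folds of 3.92, 11.1, 3.18, 10.2, 4.82 and 2.81 from start to end. Apoe, the apolipoprotein of remnant particles, had 1.18 per kb. Its end peak of 838 bp had a fold of 4.42 and a log10 p of -35500, the smallest finite p in the list, while its 2 start peaks had folds of 18 and 12.5 and log10 p values of -4.70 and -3.30. Fzd1, a Wnt receptor, had 1.14 per kb and folds of 15.3, 38.4, 12.5, 12.5 and 17.2 from end to start. Fem1a, a substrate receptor of an E3 ubiquitin ligase, had 0.880 per kb, with 1 peak of 898 bp at a fold of 57.7 and 5 between 3 and 11.6. Klhdc7a (0.854), Twnk, the mitochondrial DNA helicase (0.845), and Zfp646 (0.771) completed the group.

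Folds ran from 1.16 to 396 with a median of 8.80. They were below 2 in 499 peaks (3.55%), 20 or more in 2023 (14.4%), 50 or more in 268 and 100 or more in 38. The highest, 396, was a peak of 507 bp at chr12:102569951-102570457 on Itpk1, an inositol phosphate kinase, centred 1621 bp from the gene end. Gja4, the endothelial connexin 37, and Sertad3 had 219, Zfp708 208, Pth1r, the parathyroid hormone receptor, 190, Fbxw7, a ubiquitin ligase subunit, 176, Snrnp35 161, Ankrd9 158, Zkscan6 156 and Srfbp1 155. None of these 10 peaks lay within 500 bp of a start, and 6 lay within 1000 bp of an end (Gja4, Sertad3, Zfp708, Pth1r, Ankrd9 and Zkscan6). Of all placed peaks, 15.0% and 26.6% lay in these windows. Gja4, Ankrd9 and Sertad3 have short spans (2620, 2663 and 3525 bp), of which the end window takes up a large part.

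Dividing -log10 p by fold gave low values for the peaks of highest fold, in part because fold is the divisor. For the 38 peaks at a fold of 100 or more, the median of -log10 p divided by fold was 0.313, against 1.35 over all peaks. Of the 38, 28 were below 0.4, as were 3198 of all 14053 peaks with a finite p (22.8%). Among the 38, Pth1r stood apart with 1.22. Low values were not particular to the highest folds, since the peaks whose fold and p recur, described below, had a median of 0.260. At the other extreme were transcripts that hepatocytes make in bulk: after Apoe, the smallest finite log10 p values were -28600 for Fga, a fibrinogen chain (985 bp, fold 15.4), and -27100 for Apoa1 (599 bp, fold 4.82). The 240 peaks with q at minus infinity, on 225 genes, had a median length of 567.5 bp and a median fold of 9.945. They lay within 1000 bp of a gene end in 48.8% (42.5 to 55) of cases and within 500 bp of a start in 6.67% (4.14 to 10.6), against 26.2% and 15.2% of the other peaks. Among them, the highest folds were those of Pabpn1, a poly(A)-binding protein (58.0), Fem1a (57.7), Tnfrsf1b, a TNF receptor (51.9), Ctso, a cathepsin (41.5), Ccdc85b (40.4), Ybx1, an RNA-binding protein (37.6), and Cln8 (35.6).

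Many peaks shared exactly the same fold and p. There were 70 pairs of fold and log10 p that 10 or more peaks had in common, and they covered 2728 peaks (19.4%, 18.8 to 20.1). The commonest, a fold of 12.5 with a log10 p of -3.09, was that of 171 peaks. The 12 commonest folds, from 9.40 to 18, were the multiples 12 to 23 of 0.783 to within 0.045. These peaks were short (median 151 bp), had a median fold of 13.3 and a median log10 q of -2.96, and 13.6% had a q of 1e-05 or less. Peaks on the same step cannot be ranked by fold. The cause of the shared values was not tested.

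**Figure D4:**
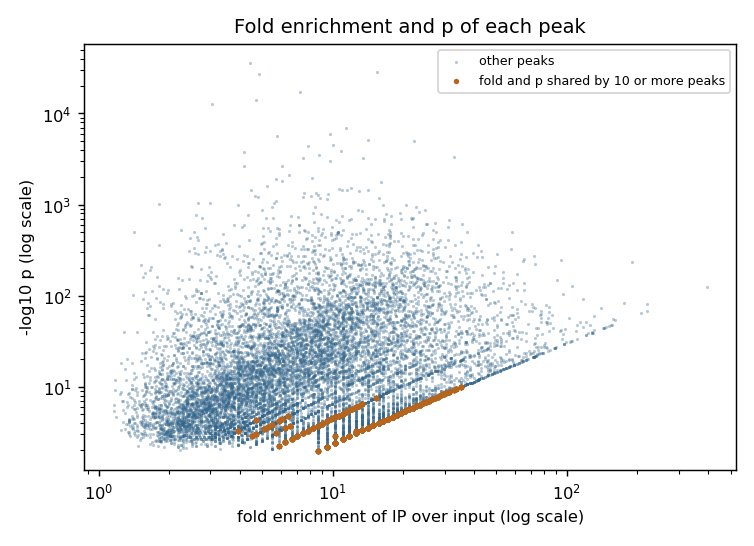
Fold enrichment of IP over input (log scale) against -log10 p (log scale) for the FF peaks with a finite p, with brown points where 10 or more peaks share both values. Brown points form rungs along the lower edge between folds of 3.92 and 35.2, and the largest -log10 p values belong to peaks of moderate fold.

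Gene families differed widely in how many members carried a peak, from 0 of 355 vomeronasal receptors and 2 of 1110 olfactory receptors to 35 of 41 zinc fingers with a BTB domain. Families were formed by symbol, and each share is read beside the 35.7% of all protein-coding genes. The zinc finger genes of the Zfp series had a peak in 258 of 397 (65.0%, 60.2 to 69.5), with 1.99 peaks per marked gene against 1.70 over all marked coding genes and a median fold of 11.7 against 8.62. Their peaks were rarely at the start, 2.53% against 14.8% of all coding peaks. Zfp646 had 7 peaks, Zfp574 6, and Zfp715 and Zfp467 5 each. The BTB zinc fingers, many of them transcriptional repressors, had a peak in 85.4% (71.6 to 93.1), led by Zbtb7a with 6 and Zbtb21 with 5, and Zbtb4 had a fold of 130. Zbtb12, Zbtb22, Zbtb3, Zbtb32, Zbtb7c and Zbtb8b had none.

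**Figure D5:**
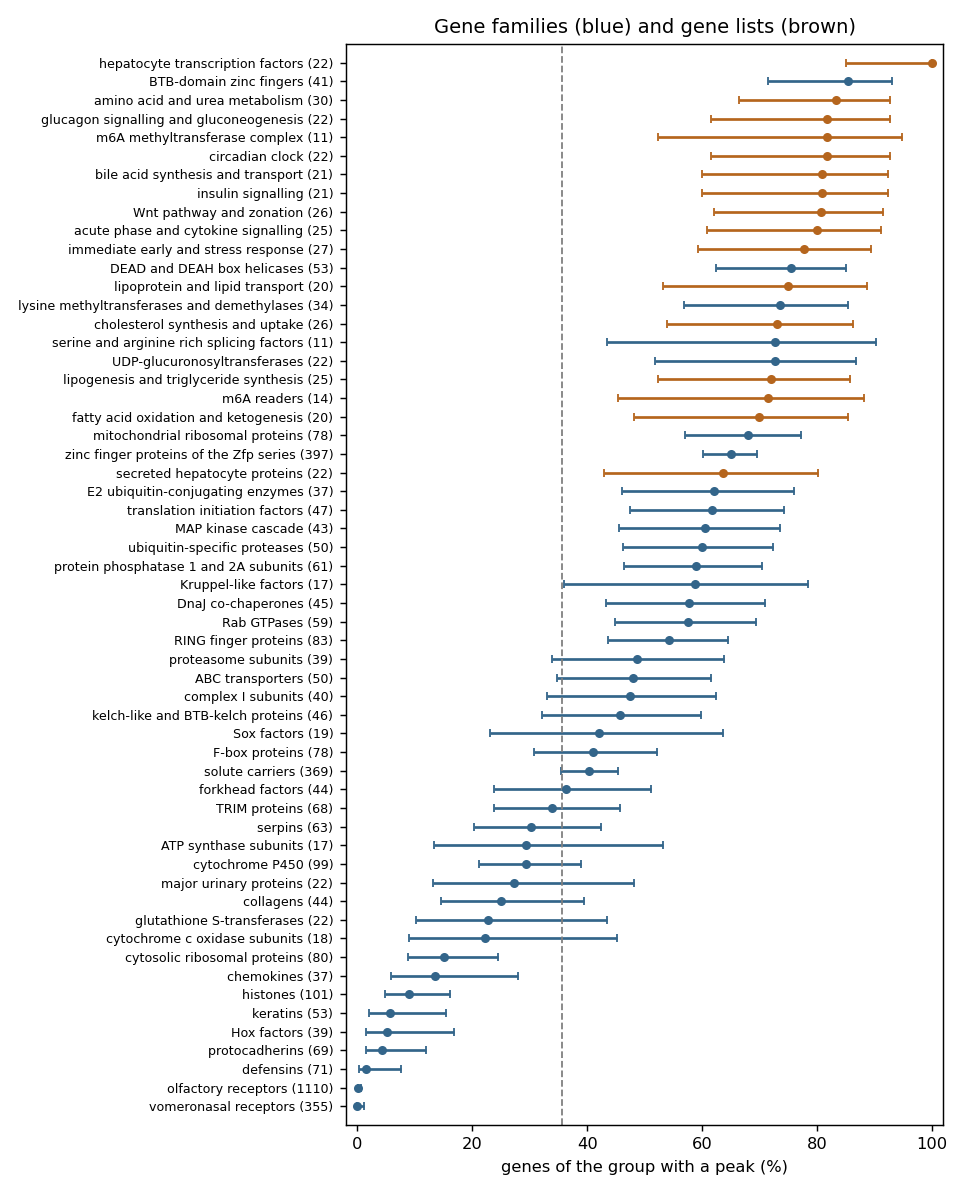
Share (%) of the genes of each family (blue) or gene list (brown) that had at least 1 FF peak, with 95% Wilson intervals as bars, the number of genes in brackets and the share over all protein-coding genes (35.7%) as a dashed line. Hepatocyte transcription factors at 100% and BTB zinc fingers at 85.4% stand at the top, and olfactory and vomeronasal receptors at the bottom. The gene lists were chosen with earlier results of these data known.

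Enzymes that write and erase histone lysine methylation had many peaks per marked gene. Of 34 Kmt, Kdm and Setd genes, 25 (73.5%, 56.9 to 85.4) had a peak, with 3.12 per marked gene, and 21 had 2 or more. After Kmt2d came Kmt2e with 7, Setd1b with 6 and Kdm3b with 5, and Kdm6b reached a fold of 59.5. Other nuclear and RNA-handling families were also above the background: DEAD and DEAH box helicases at 40 of 53 (75.5%), with 5 peaks on Ddx6, a repressor of translation, and SR splicing factors at 8 of 11. Kruppel-like factors had peaks in 10 of 17, with 8 on Klf15, 4 on Klf13 and 3 each on Klf9 and Klf10. Hox factors, patterning genes of the embryo, had peaks in 2 of 39 (Hoxb3 and Hoxb4), neither at a q of 1e-05 or less.

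The 2 sets of ribosomal protein genes were marked to very different extents. Of 80 cytosolic ribosomal protein genes, 12 (15.0%, 8.79 to 24.4) had a peak, always 1, with a median fold of 3.21. Rpl29 had the longest (357 bp, fold 5.85), and Rpl17 the highest fold, 22.7. Mitochondrial ribosomal protein genes, of similar number, had a peak in 53 of 78 (67.9%, 57.0 to 77.3), with 50% of the peaks within 1000 bp of the gene end. Their marked members had a median span of 5.95 kb, against 17.1 kb over coding genes, so this window takes up a larger part of them. Mrpl18 had 1013 bp in 2 peaks, and the longer of the 2 peaks of Mrps34 (531 bp) had a fold of 7.56 with a log10 p of -328. Translation initiation factors were marked in 29 of 47 (61.7%, 47.4 to 74.2), with 4 peaks on Eif5b. Of the energy genes, ATP synthase subunits were marked in 5 of 17 (29.4%, 13.3 to 53.1), cytochrome c oxidase subunits in 4 of 18 (22.2%, 9.00 to 45.2) and complex I subunits in 19 of 40 (47.5%, 32.9 to 62.5), all 3 intervals holding the background. Complex I had a low median fold of 3.56, with 68.2% of its peaks near the start. Its marked members were short too, with a median span of 7.80 kb. Proteasome subunits were marked in 19 of 39 (48.7%, 33.9 to 63.8), an interval that also holds the background, with 54.5% of the peaks near the start. Of the histone genes, 9 (8.91%) had peaks, led by H1f0 with 2 peaks over 1401 bp and H2ax with a fold of 44.3.

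Families of liver metabolism differed among themselves. Cytochromes P450 were marked in 29 of 99 (29.3%, 21.2 to 38.9), with a median fold of 5.10, and solute carriers in 149 of 369 (40.4%, 35.5 to 45.5), led by Slc17a3 with 5, and both intervals hold the share over all coding genes. UDP-glucuronosyltransferases, which conjugate bilirubin and drugs, were marked in 16 of 22 (72.7%, 51.8 to 86.8), with 54.5% of the peaks near the start. Major urinary proteins were marked in 6 of 22 (27.3%, 13.2 to 48.2), an interval that holds the same share, with a fold of 33.3 on Mup22. Of their peaks, 6 of 7 were near the start, in marked genes with a median span of 3.99 kb. Members of these 2 families are close copies, or share exons, so how reads were divided among them is uncertain. Serpins were marked in 19 of 63 (30.2%, 20.2 to 42.4) and collagens in 11 of 44 (25%, 14.6 to 39.4), and both intervals hold the share over all coding genes. Keratins were marked in 3 of 53 (5.66%, 1.94 to 15.4), namely Krt8, Krt18 and Krt23.

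All 22 hepatocyte transcription factors of the list made here had a peak, 21 of them at a q of 1e-05 or less, and they carried 60 peaks, 2.73 per gene. The gene lists were chosen with earlier results of these data known, so this share is a description and not a test against the background. Hnf4a, the central nuclear receptor of hepatocyte identity, had a peak of 300 bp with a fold of 65.0 and 2 with folds of 4.33 and 1.73. Prox1 had the most peaks, 6, with folds from 1.67 to 5.87, but was the factor with none at a q of 1e-05 or less (lowest log10 q -4.86). Onecut2 had 5, among them the highest fold of the group (74.0), Ppara, the fasting sensor of fatty acids, 5 (19.8 at most), and Rxra, the partner of many nuclear receptors, 5 (21.1 at most). Cebpb had a single peak with a fold of 32.9 and Foxa1 2 with 32.7 and 13.3.

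Secreted hepatocyte proteins looked different. Of 22 genes, 14 had a peak, all at a q of 1e-05 or less, but with a median fold of 3.03 against 8.62 over coding peaks. Near the start lay 45.5% of the peaks, in marked genes with a median span of 9.8 kb against 17.1 kb over coding genes. Alb, the albumin gene, had 1 peak, of 150 bp near the start with a fold of 1.57 (log10 q -175). Fga had 3, with folds of 3.45, 15.4 and 5.39, and Hp, haptoglobin, 2, with 7.21 and 1.87. Ttr, Trf, Hpx, Serpina1c, Plg, Igf1, Igfbp1 and Apoh had none. Lipoprotein genes lay between, with 15 of 20 marked and a median fold of 4.26: Apoa5 had folds of 11.4 and 9.73, both with q at minus infinity, and Apoc2, Mttp, Lcat, Pltp and Angptl4 had none.

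Median folds were low in the lists of metabolic enzymes and higher in those of signalling genes, where some peaks have the recurring values described above. Amino acid and urea metabolism had 25 of 30 genes marked, 1.24 peaks per marked gene, a median fold of 4.16 and 48.4% of peaks near the start, among them Gldc, of glycine cleavage (fold 15.0), Fah (14.1) and Cth (13.2). Cps1, Ass1, Hpd, Tdo2 and Ahcy had none. Fatty acid oxidation had 14 of 20 with a median fold of 2.72, cholesterol synthesis and uptake 19 of 26 with 3.35, lipogenesis 18 of 25 with 3.52, and bile acid synthesis and transport 17 of 21 with 4.18. In the last, Cyp7a1, the rate-limiting enzyme of bile acid synthesis, had folds of 6.94 and 4.76, Cyp8b1 7.18 and 7.20, and Slc10a1, the bile acid uptake carrier, 14.1, 21.5 and 2.91. Mylip, a ubiquitin ligase, was the exception among cholesterol genes with 48.6 and 39.2.

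Insulin signalling had 17 of 21 genes marked, each at a q of 1e-05 or less, with a median fold of 12.5 and 2.59 peaks per marked gene. Irs2, which carries the signal from the insulin receptor, had 6 peaks with folds of 10, 54.8, 12.5, 12.4, 7.44 and 14.1 from the gene end to the start. Pik3r1 had 41.2, 26.6 and 21.9, Irs1 31.3, 21.9 and 14.1, Insr 13.1, 6.07 and 11.7, and Pdpk1, Grb10, Grb14 and Gys2 had none. Wnt signalling and zonation had 21 of 26 with a median fold of 13.65, led by Fzd1 with 5 peaks and Axin1 with 4, and Fzd4 reached 63.4. Lgr5, Rnf43, Tcf7l1, Lef1 and Dvl2 had none. Glucagon signalling and gluconeogenesis had 18 of 22 with 9.79, where G6pc, the last enzyme of glucose release, had 4 peaks between 2.59 and 3.99 and Foxo3 2 with 28.0 and 34.9. Cytokine signalling and acute phase genes had 20 of 25 with 6.01. Some folds in these lists are values that many peaks share, as in Fzd1 (fold 12.5, log10 p -3.09). Peaks with such shared values had a median fold of 13.3, and how many of them each list holds was not counted.

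Immediate early and stress genes were marked in 21 of 27. Of their 35 peaks, 48.6% lay within 1000 bp of the end against 25.8% of all coding peaks, and 25.7% within 500 bp of the start against 14.8%. Their marked members are short, with a median span of 2.44 kb, of which these windows take up a large part. Myc had folds of 14.1 and 56.4, Jun 43.4, 7.57 and 6.85, Ier5 42.0, 16.4 and 12.5, and Gadd45b 29. Fos, Fosb, Jund, Egr2, Klf6 and Hmox1 had none. Of 22 clock genes 18 were marked with a median fold of 8.22, including Per1 (11), Per2 (8.40 and 4.48), Csnk1e with 4 peaks and Rora with a fold of 45.4. Clock, Arntl, Npas2 and Cry1 had none.

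Part of the machinery of m6A was itself marked. Of 11 genes of the methyltransferase complex and related enzymes, 9 had a peak, 6 of them at a q of 1e-05 or less. The median fold of their peaks was 12.5. After Rbm15 the most peaks were on Zc3h13 and Rbm15b with 4 each and Wtap and Virma with 3 each. None of the 3 Virma peaks reached that q (lowest log10 q -4.05). Rbm15b had a fold of up to 31.7 and Wtap one of up to 42.5. The catalytic core, Mettl3 and Mettl14, had none. Readers had 10 of 14 marked, 7 of them at a q of 1e-05 or less. Ythdc1, the nuclear reader, had 6 peaks (folds of 52.5, 7.05, 4.05, 16.9, 17.7 and 2.59 from start to end). Alkbh5 had 3 peaks with folds of 18.8, 5.22 and 8.05, and Fto had none.

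Non-coding RNAs held a small part of the list. Long non-coding RNA genes had 675 peaks on 506 of 12731 genes (3.97%), with a median fold of 11 and 39.2% of peaks near the gene end. That last share depends on gene length, and the spans of these genes were not set beside those of coding genes. Gm38456 had 7 peaks, Neat1 6, and Tug1 6 with a fold of up to 37.2. Malat1, another abundant nuclear RNA, had 2, of 241 bp centred 120 bp from its start (fold 22.6) and of 1289 bp centred 1034 bp from it (fold 11.1). The single miRNA entry, Mir671, was exactly the 98 bp of its hairpin at chr5:24592114-24592211 (fold 9.79, log10 q -3.52). It lay inside a peak of Chpf2, an enzyme of chondroitin synthesis, of 1403 bp (fold 15.7, log10 q -139) on the same strand, so that reads of the host transcript cannot be told apart from those of the hairpin. Its mature forms, with the seed in capitals, show which RNA the entry is named for.
mmu-miR-671-5p: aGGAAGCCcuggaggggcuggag
mmu-miR-671-3p: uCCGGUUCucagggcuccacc

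Such overlaps between genes were not rare. A total of 812 peaks (5.78%, 5.40 to 6.17) shared exon sequence with a peak of another gene, 676 of them with a gene of the opposite strand and 148 with a gene of the same strand. In 20 of them the limits were the same for both genes, as in the 3 peaks of Chtf8 that were listed again for Derpc with identical folds (3.77, 5.06 and 8.91). The strand in the list is that of the gene, and the labels do not say whether the libraries kept strand, so peaks of overlapping genes cannot be assigned to 1 of them.

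Markers of liver cell types were marked in shares that cannot be told from the 35.7% of all coding genes at these list sizes. Hepatocyte markers had peaks in 5 of 9 genes (Alb, Apoa1, Hnf4a, Tat and G6pc), and Ttr, Serpina1c, Cps1 and Cyp2e1 had none. Macrophage markers had 4 of 7, among them Clec4f of Kupffer cells with folds of 1.57, 20.5 and 5.68, and endothelial markers 4 of 6, with Kdr at 2.54 and 47.0. Stellate cell markers had 3 of 6, with Lrat, the retinol-storing enzyme, at 22.7, 13.1 and 8.62, cholangiocyte markers 1 of 5 (Sox9, fold 30.9) and lymphocyte markers 0 of 5. The 95% intervals of the hepatocyte (26.7 to 81.1), macrophage (25 to 84.2), endothelial (30 to 90.3) and stellate cell (18.8 to 81.2) shares all hold that background. Peaks do not measure RNA levels, so these counts neither check the tissue label nor bear on cell numbers.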

How the data were processed

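The authors called peaks of IP over input with exomePeak 2.16.0 at a q of 0.05, as the series text states. Tools and build named in the submitters' processing notes are BWA 0.7.12, HOMER 4.9.1, fastp 0.19.11 and GRCm38.p6. For each peak the deposited list gives block positions, a p-value, log10 p and log10 q (scores, since minus infinity occurs) and the authors' ratio of IP over input (fold enrichment), used only to describe peaks. The treatment of reads that map to several places was not given in the sources used here.

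Length was the sum of blocks. Position was measured from the block centre to the gene span of the RefSeq table (GRCm38.p6), which matched 8373 of 8376 symbols. Intervals are 95% Wilson intervals. Work was done in Python 3.11.15 with scipy 1.17.1, numpy 2.4.6, matplotlib 3.10.9 and pandas 2.3.3, and the code was tested on simulated data.

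Members and gene lists were chosen with earlier results of these data known. Symbol patterns of families were narrowed after a first look, to drop genes such as kinases of ribosomal proteins. Genes named are those with most peaks, most peak sequence or most peaks per kb, the peaks of highest fold, smallest q, greatest length and most blocks, and in each group up to 4 genes by peaks, the highest fold, and unmarked members where 8 or fewer. Others named (Bmp2, Gphn, Malat1, Xist, Chtf8, Fga and further members of the gene lists) were chosen after their values were seen. Some genes that this rule names are not reported here.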

Additional observations from a re-analysis of the deposited data

How the results depend on the processing

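Of 40 recomputed values, 20 stayed within the interval of the main value or within 1.5 times a main count, and 20 moved. At a q of 1e-05 or less there were 1946 genes with 2 or more peaks and 36 with 5 or more, the median length was 330 bp, 21.1% of peaks crossed an intron, 13.2% lay at the start and 30.3% at the end, and 26.8% of coding genes had a peak. A fold of 2 or more gave 266 bp, 25.7% at the end and 34.99% of coding genes, and coding genes alone gave 25.8% at the end. Start windows of 200 and 1000 bp gave 9.52% and 19.1%, and end windows of 500 and 2000 bp gave 15.1% and 42.8%. Without the peaks whose fold and p recur in 10 or more, chosen after seeing the data, 89 genes had 5 or more peaks, the median was 271 bp, 19.3% crossed an intron, 29.1% lay at the end and 31.0% of coding genes had a peak. The order of start and end depends on the windows: with 500 bp on both sides the shares were 15.0% and 15.1%. Merging peaks 100 bp or less apart left 123 genes with 5 or more. No paired analysis was possible because there is 1 IP and 1 input library and no replicate. Depth is unknown, so peaks missed for want of reads cannot be counted.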
